A study of Homo sapiens with 16 samples.

Results

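CUTL1, a human cell line of T-cell acute lymphoblastic leukaemia (T-ALL), was compared at baseline with 3 other T-ALL lines, CEM, DND41 and Jurkat. The arrays were those of cells kept for 15 h in DMSO, the solvent control, and CUTL1 had 2 of these 8 arrays. The study used 16 arrays of the Affymetrix type U133 Plus 2.0, with 2 of each line in DMSO and 2 of each line after 15 h in 1 uM PD-0332991. The drug, also called palbociclib, blocks CDK4 and CDK6, which work with D-type cyclins to drive cells into S phase, and its arrays gave a further measurement of each line. Each group is 1 cell line, and the labels do not tell whether its 2 arrays stem from different cultures. The p-values therefore reflect the spread from array to array, which may be technical. The labels write the line as CUTL1 and the design text as CUTL-1. A T-ALL line written CUTLL1 is known to carry a translocation that joins NOTCH1 to the T cell receptor beta locus, but the labels do not say that it is the same line.

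T-ALL arises from immature T cells of the thymus. NOTCH1 is a receptor that, once cut by gamma-secretase, sends its intracellular part to the nucleus, where it works with the DNA-binding protein RBPJ to switch on genes such as HES and HEY family repressors, DTX1 and NRARP. Activating changes in NOTCH1 and loss of the CDKN2A locus, which encodes the CDK inhibitor p16 and the tumour suppressor ARF, are among the most common lesions of T-ALL. Many T-ALLs also express a transcription factor out of place, such as TAL1, LMO2, TLX1, TLX3 or NKX2-5, and differ in the thymocyte stage that their surface genes resemble.

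NRARP, HES4 and HES5 were 3 of the 7 NOTCH pathway genes that lay above all 3 other lines in CUTL1, and their promoters are shown because they are classical NOTCH target promoters. The sequences run from 250 bases before to 50 bases after the gene start and were taken from RefSeq (GRCh38.p14). They lie at chr9:137302222-137302521 for NRARP, chr1:1000048-1000347 for HES4 and chr1:2530214-2530513 for HES5, all on the minus strand. Capitals mark the letters GTGGGAA on either strand (TTCCCAC on the other strand), a form of the RBPJ motif.
NRARP: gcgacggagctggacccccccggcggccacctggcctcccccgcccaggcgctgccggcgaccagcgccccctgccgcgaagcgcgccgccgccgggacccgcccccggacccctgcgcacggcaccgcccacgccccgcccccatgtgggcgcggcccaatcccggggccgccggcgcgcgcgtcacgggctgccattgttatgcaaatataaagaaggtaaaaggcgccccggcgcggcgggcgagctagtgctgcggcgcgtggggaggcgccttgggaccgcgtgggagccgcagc
HES4: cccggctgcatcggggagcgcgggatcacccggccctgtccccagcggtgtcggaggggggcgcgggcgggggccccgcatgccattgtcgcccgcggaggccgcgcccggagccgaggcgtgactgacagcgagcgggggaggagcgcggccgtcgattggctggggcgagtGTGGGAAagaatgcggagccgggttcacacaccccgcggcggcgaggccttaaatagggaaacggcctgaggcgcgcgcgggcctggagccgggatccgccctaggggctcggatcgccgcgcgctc
HES5: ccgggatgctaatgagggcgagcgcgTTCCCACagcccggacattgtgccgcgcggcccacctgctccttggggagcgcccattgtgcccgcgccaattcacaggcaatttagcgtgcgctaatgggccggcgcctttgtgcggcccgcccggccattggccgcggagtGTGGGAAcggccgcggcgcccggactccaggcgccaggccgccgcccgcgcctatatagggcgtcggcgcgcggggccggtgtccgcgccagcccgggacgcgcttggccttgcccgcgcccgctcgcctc
The HES4 promoter held 1 match, and the HES5 promoter held 1 match on each strand. Of 35116 promoters in the table, 2194 (6.25%) held them. Promoters were found for 5 of the 7 genes (NOTCH1, NRARP, HES4, HES5 and IGF1R, not DLL1 or DTX1), and 2 of these 5 held the letters. A match describes the letters in this window and is not a measured binding site.

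The 2 CUTL1 arrays resembled each other closely (Pearson r = 0.995 across genes). The CUTL1 mean correlated less with the mean of CEM (0.931), DND41 (0.926) or Jurkat (0.921). The values were deposited as linear intensities, of which log2 was taken, and the test covered genes whose DMSO mean in some line was at or above a floor, the median deposited value (4.88 on the log2 scale). This kept 13542 of 19740 genes. CUTL1 was set against the mean of the 3 other lines, each weighed equally, with limma and p-values adjusted by Benjamini-Hochberg over all genes tested. At an adjusted p under 0.05, 2760 genes (20.4%) were higher and 3184 (23.5%) lower in CUTL1. The median difference over all genes was -0.01 on the log2 scale.

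A gene was called outside the range where CUTL1 differed from each of the 3 other lines in the same direction, at an adjusted p under 0.05 for the least clear of the 3 differences, and where both CUTL1 arrays lay beyond all 6 others. CUTL1 lay above the range for 657 genes (4.85%) and below it for 728 (5.38%), 1385 genes in all (10.2%). The gap, the distance on the log2 scale from the CUTL1 mean to the nearest other line, had a median of 0.73 above and -0.64 below, and reached 1 or more for 218 and 205 genes. The floor fixes some directions. A total of 146 genes reached it in CUTL1 alone, so that CUTL1 could only be the brightest, and 67 of the 657 were such genes. In 1028 genes CUTL1 was below the floor and could not be the brightest, and 120 of the 728 were among these. The list counts given from here on describe the genes that passed the floor, and the numbers in parentheses beside them are shares of those tested. The same rule gave 1050 genes (7.75%) for CEM, 1065 (7.86%) for DND41 and 1751 (12.9%) for Jurkat, each set against the other 3 lines. At the threshold, TOMM40L was just inside the call (gap -0.46, adjusted p = 0.04998) and TVP23C just outside it (gap 0.45, adjusted p = 0.05007). The count below the range moved to 427 without CUTL1 replicate 1, to 469 without CEM replicate 1 and to 478 without DND41 replicate 1. Against 2 lines in place of 3, it was 1279 with CEM left out and 1177 with Jurkat left out, and the count above the range was 1235 with Jurkat left out.

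RNA of the actin gene showed more 3' bias in CUTL1 than in the other lines. The log2 difference between its 3' and 5' probe sets was 1.23 and 1.38 in CUTL1, against 0.51 and 0.73 in CEM, 1.0 and 1.01 in DND41 and 0.74 and 0.84 in Jurkat. For GAPDH it was 0.16 and 0.10 in CUTL1 and 0.09 to 0.19 on the other arrays, so the lines overlapped. The part of this in the gene differences was not tested. T-cell markers (CD3D, CD3E, CD3G, CD247, CD2, CD5, CD7 and LCK) were above the floor in all 4 lines, 8 of 8 each, with summed linear intensities of 36250 and 36688 in CUTL1, against 29798 and 31051 in CEM, 24350 and 24899 in DND41 and 31834 and 33574 in Jurkat. Markers of other cell types were partly at or above the floor. Of 5 B-cell markers CD79A, CD79B and CR2 reached it in all 4 lines and MS4A1 and PAX5 in none. Of 8 NK and cytotoxic markers NCAM1, NKG7, PRF1 and GZMA reached it in all 4 lines and GZMK in Jurkat alone, while GNLY, GZMB and KLRD1 did not. Of 5 erythroid and megakaryocyte markers HBB, PF4, ITGA2B and GP9 reached it in every line, at means of 5.20 to 5.95, and ALAS2 in none. Of 7 fibroblast and endothelial markers COL1A1, PECAM1 and VWF reached it in all 4 lines and PDGFRB in DND41 and Jurkat, while COL1A2, COL3A1 and CDH5 did not. Of 5 epithelial markers KRT8 and KRT18 reached it in all 4 lines, at means of 5.11 to 5.61, and EPCAM in CEM alone. Of 7 myeloid markers only CSF1R reached the floor, in CUTL1 and in each other line. The part of these in the results was not tested.

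The gene furthest above the other lines was CYTIP, which binds cytohesins and tunes lymphocyte adhesion. Its log2 intensities were 11.12 and 11.15 in CUTL1, against 3.73 and 3.64 in CEM, 3.84 and 3.74 in DND41 and 4.27 and 4.20 in Jurkat. Both CUTL1 arrays were high, and the 6 others lay below the floor. The gap was 6.90 (adjusted p = 1.76e-08). HMGA2, an architectural chromatin protein of embryonic tissue, had 8.31 and 8.52 in CUTL1, against 3.29 and 3.27 in CEM, 3.04 and 3.25 in DND41 and 3.13 and 3.08 in Jurkat. SALL3, a zinc finger factor of the spalt family, had 8.70 and 8.96 in CUTL1, against 3.68 and 3.73 in CEM, 3.76 and 3.89 in DND41 and 3.95 and 3.81 in Jurkat. For both genes the 4 lines split into CUTL1 on one side and 3 lines below the floor on the other, with gaps of 5.14 and 4.95.

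A pair of secreted or membrane inhibitors of WNT signalling were among the 15 largest gaps above the range. APCDD1 had 8.64 and 8.55 in CUTL1, against 3.66 and 3.52 in CEM, 3.49 and 3.32 in DND41 and 3.50 and 3.74 in Jurkat (gap 4.98). SFRP2 had 8.14 and 8.06 in CUTL1, against 3.85 and 3.79 in CEM, 3.42 and 3.34 in DND41 and 3.59 and 3.56 in Jurkat (gap 4.29). The CUTL1 arrays stood clear of all others for both genes. IL4, the cytokine that drives type 2 helper T cells, had 9.41 and 9.27 in CUTL1, against 4.90 and 5.02 in CEM, 3.59 and 3.54 in DND41 and 5.10 and 4.86 in Jurkat, a gap of 4.36. GPR183, the oxysterol receptor that guides lymphocyte migration, had 6.83 and 6.99 in CUTL1, against 2.66 and 2.77 in CEM, 3.0 and 2.72 in DND41 and 2.74 and 2.70 in Jurkat, a gap of 4.05. IL4 was thus high in CUTL1 and near or below the floor elsewhere, and no other line had GPR183 above the floor.

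The rest of the 15 covered varied functions. They were CCDC50, an effector in epidermal growth factor signalling (gap 5.68), the carbonyl reductase CBR1 (5.46), the membrane protein TMEM158 (4.92), and the NOTCH feedback inhibitor NRARP (4.86). SHISA9, an accessory protein of glutamate receptors, had a gap of 4.57, the clock gene PER3 one of 4.38, GSAP, named for activating gamma-secretase, one of 4.17, and the oxidase ENOX1 one of 3.96. In 13 of the 15 all 3 other lines were below the floor, so their gaps were measured against dim values.

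**Figure D1:**
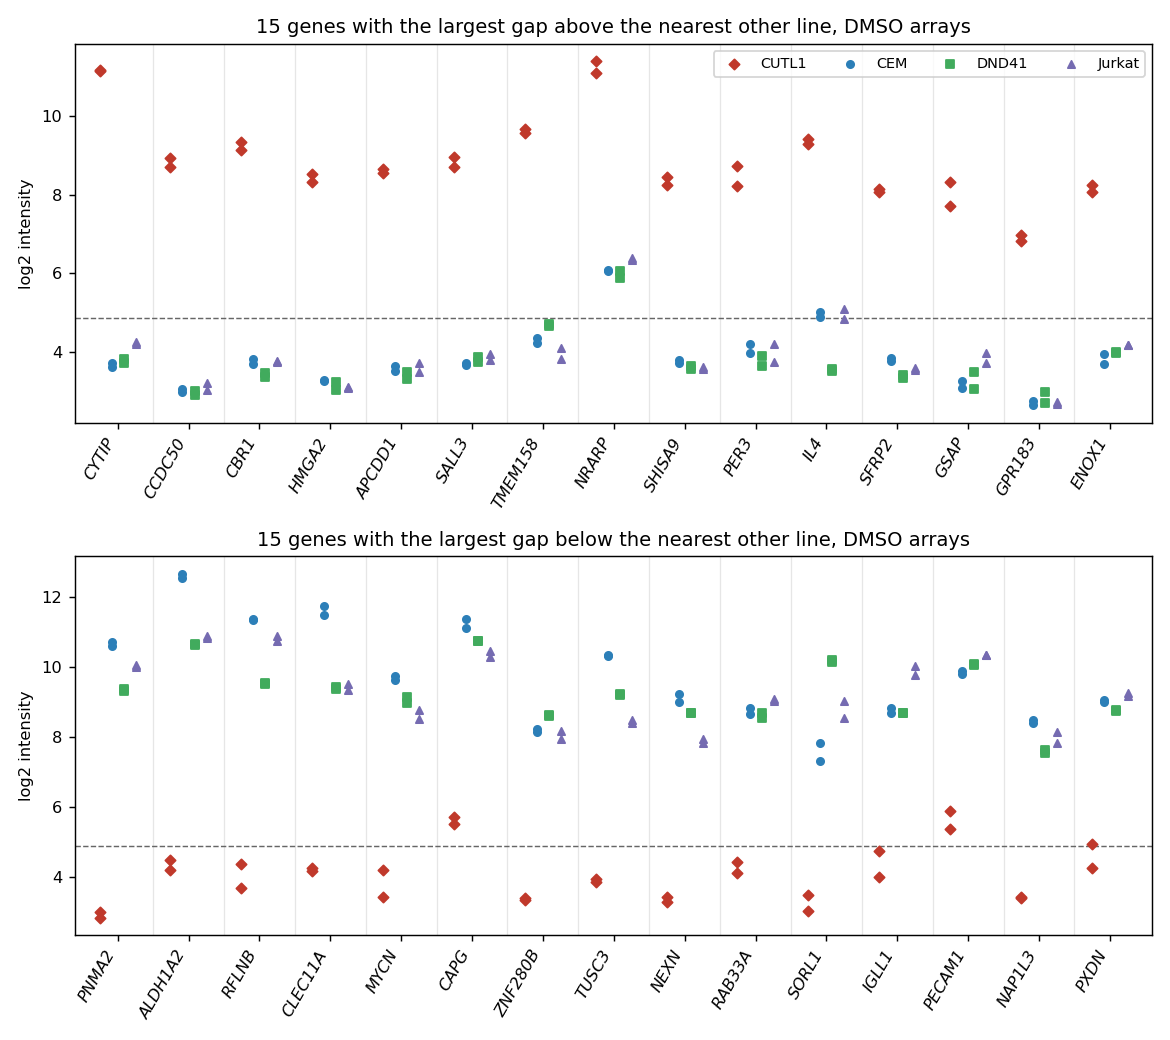
Log2 intensity (vertical axis) on each of the 8 DMSO arrays for the 15 genes furthest above (upper panel) and the 15 furthest below (lower panel) the nearest other line. Each point is 1 array, CUTL1 is drawn first for each gene, and the dashed line is the floor of 4.88. In every gene the 2 CUTL1 points lie apart from the 6 others, with gaps from 3.96 to 6.90 above and from -4.16 to -6.44 below.

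On the log2 scale without an offset, the largest gap below the range was that of PNMA2, a paraneoplastic antigen. Its log2 intensities were 2.82 and 2.99 in CUTL1, against 10.59 and 10.73 in CEM, 9.36 and 9.33 in DND41 and 10.0 and 10.07 in Jurkat, a gap of -6.44. ALDH1A2, which makes retinoic acid and has been described as a target of TAL1 and LMO proteins in T-ALL, had 4.20 and 4.47 in CUTL1, against 12.67 and 12.55 in CEM, 10.67 and 10.64 in DND41 and 10.90 and 10.84 in Jurkat, a gap of -6.31. Both were dim in CUTL1 and bright in the 3 other lines, and with 16 added to the intensities ALDH1A2 had the larger gap (-5.49, beside -4.82 for PNMA2). MYCN, the neural member of the MYC family, had 4.18 and 3.41 in CUTL1, against 9.75 and 9.62 in CEM, 9.14 and 8.98 in DND41 and 8.52 and 8.76 in Jurkat. It was below the floor on both CUTL1 arrays, with a gap of -4.84 (adjusted p = 6.85e-06), but was not called when probe sets ending in _x_at and _s_at were left out. PECAM1 (CD31), an adhesion receptor of endothelium and blood cells, had 5.36 and 5.87 in CUTL1, against 9.90 and 9.81 in CEM, 10.08 and 10.06 in DND41 and 10.35 and 10.34 in Jurkat, a gap of -4.24, and was lower in CUTL1 without falling below the floor.

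Others of the 15 act at the cytoskeleton or the membrane. They were CAPG, an actin capping protein (gap -4.76), NEXN, which binds actin filaments (-4.55), RFLNB, a partner of filamins (-5.50), the sorting receptor SORL1 (-4.31) and the small GTPase RAB33A (-4.36). The secreted growth factor CLEC11A had a gap of -5.19, the peroxidase PXDN one of -4.16, and IGLL1, part of the surrogate light chain of pre-B cells, one of -4.31. The zinc finger gene ZNF280B (-4.71), TUSC3, of the N-glycosylation machinery (-4.56), and NAP1L3, a nucleosome assembly protein (-4.18), made up the number. In 13 of these 15 the CUTL1 mean was below the floor.

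Adjusted p-values of the 30 genes lay between 1.76e-08 and 1.53e-05. All 30 were outside the range on the same side in the PD-0332991 arrays too. Of the 30, 20 had more than 1 probe set, and 17 of these had another probe set called in the same direction and 0 had one called in the other. Adding 16 to the intensities before log2, which compresses dim values, divided the gaps by 1.05 to 1.59, the most for GPR183, whose gap became 2.55. Averaging all probe sets of a gene in place of its brightest made the gap smaller by over 1.5 times in 32 of the 122 named genes outside the range that it covered.

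NOTCH1, its feedback inhibitor NRARP and further genes of the pathway were above the range in CUTL1. Of 34 listed receptors, ligands, modifiers and targets 33 were tested, 17 (51.5%) were higher and 6 (18.2%) lower than the mean of the other lines, beside 20.4% and 23.5% of all genes, and the median difference was 0.39, beside -0.01 over all genes. Above the range were 7 (21.2%), beside 4.85% of all genes tested, and 1 (3.03%) was below it, beside 5.38%. HES5 and DLL1 were tested through CUTL1 alone, so only the other 5 of the 7 could have come out otherwise. The list was put together with earlier results of these data known. All 7 genes above the range were above it in the PD-0332991 arrays as well.

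NOTCH1 itself had 10.94 and 10.88 in CUTL1, against 9.89 and 9.97 in CEM, 9.40 and 9.51 in DND41 and 9.01 and 9.04 in Jurkat. The lines did not overlap, and CUTL1 was above CEM, the nearest line, by 0.98 (1.97-fold, adjusted p = 0.00017). With CEM left out of the comparison the gap was 1.45. A second NOTCH1 probe set, at means of 5.56 in CUTL1, 5.35 in CEM, 5.40 in DND41 and 5.26 in Jurkat, did not pass the test (adjusted p = 0.117). NOTCH2 and NOTCH3 were not outside the range on the probe set used for each. The 2 NOTCH3 probe sets differed. One had means of 6.02 in CUTL1, 6.17 in CEM, 5.78 in DND41 and 5.85 in Jurkat (average contrast, adjusted p = 0.638). The other was highest in CUTL1, at 6.88, against 4.86 in CEM, 6.43 in DND41 and 5.12 in Jurkat (average contrast, adjusted p = 1.37e-05). RBPJ, the DNA-binding partner, was slightly lower in CUTL1 than the mean of the others, at means of 10.58 in CUTL1, 10.73 in CEM, 10.83 in DND41 and 11.01 in Jurkat (adjusted p = 0.0354). Of the ligands, DLL1 was just around the floor in CUTL1, with 5.14 and 4.89 in CUTL1, against 3.09 and 3.22 in CEM, 4.40 and 4.25 in DND41 and 3.81 and 3.89 in Jurkat, and below it in every other line (gap 0.69).

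Among the targets NRARP stood out. It had 11.09 and 11.38 in CUTL1, against 6.07 and 6.08 in CEM, 6.06 and 5.88 in DND41 and 6.35 and 6.40 in Jurkat, so that the 3 other lines lay close together and CUTL1 was 4.86 above Jurkat, the nearest (adjusted p = 1.75e-07). HES4, a repressor of the HES family, had 10.82 and 10.77 in CUTL1, against 6.87 and 6.76 in CEM, 9.0 and 9.13 in DND41 and 9.44 and 9.35 in Jurkat. It was thus high in CUTL1, intermediate in DND41 and Jurkat and low in CEM, with a gap of 1.40. DTX1, an E3 ligase that binds NOTCH, was likewise highest in CUTL1 and lowest in CEM. It had 10.68 and 10.59 in CUTL1, against 5.95 and 5.31 in CEM, 9.53 and 9.48 in DND41 and 9.40 and 9.35 in Jurkat, a gap of 1.13. IGF1R, the receptor of insulin-like growth factor, had 9.55 and 9.61 in CUTL1, against 6.01 and 6.21 in CEM, 8.19 and 8.21 in DND41 and 8.11 and 8.54 in Jurkat, a gap of 1.26. HES5 was dim, with 5.09 and 4.78 in CUTL1, against 4.05 and 3.90 in CEM, 3.99 and 4.04 in DND41 and 3.83 and 3.77 in Jurkat, and its gap of 0.91 rested on values around the floor.

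Not all targets followed. HES1, the best known target in thymocytes, had means of 10.76 in CUTL1, 10.54 in CEM, 10.98 in DND41 and 9.12 in Jurkat, and was inside the range, below DND41. MYC, a target in T-ALL, had 10.99 and 10.81 in CUTL1, against 11.29 and 11.37 in CEM, 11.50 and 11.61 in DND41 and 12.03 and 11.79 in Jurkat. All 6 other arrays were above both CUTL1 arrays, and MYC was lower, with a difference of -0.70 ± 0.09 from the mean of the others (SE, adjusted p = 0.000518), but the range call was narrowly missed (adjusted p = 0.0511). IL7R, the receptor of interleukin 7, was between DND41 and the other lines, at means of 10.18 in CUTL1, 7.22 in CEM, 11.69 in DND41 and 5.78 in Jurkat. The deltex gene DTX4 was below the range (gap -0.37, adjusted p = 0.0208), and lost that call in 6 of 8 fits that each left out 1 array. Its means in CUTL1 (4.47) and in CEM, the nearest line (4.84), were below the floor. The DTX4 gap thus compared dim values, and CUTL1 could not have been highest.

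**Figure D2:**
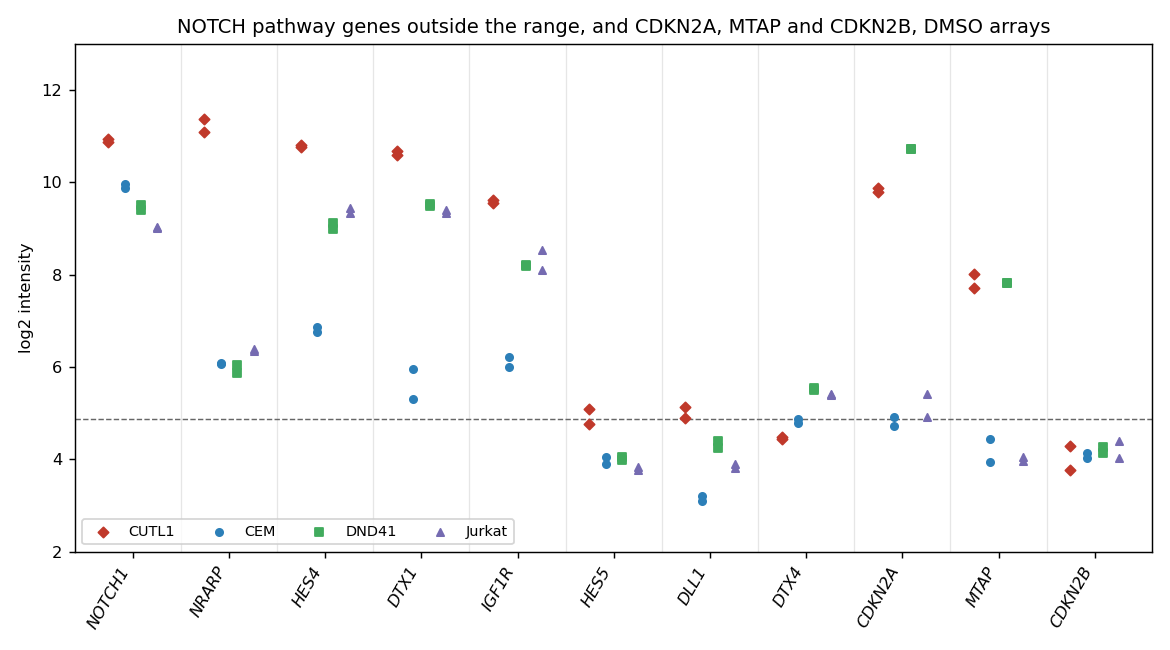
Log2 intensity (vertical axis) on each of the 8 DMSO arrays for the 8 NOTCH pathway genes outside the range and for CDKN2A, MTAP and CDKN2B. Each point is 1 array, and the dashed line is the floor of 4.88. CUTL1 is highest for NOTCH1, NRARP, HES4, DTX1, IGF1R, HES5 and DLL1, lowest for DTX4, and beside DND41 for CDKN2A and MTAP.

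CDKN2A divided the lines into 2 pairs. It had 9.89 and 9.79 in CUTL1, against 4.91 and 4.71 in CEM, 10.73 and 10.73 in DND41 and 5.42 and 4.91 in Jurkat. CUTL1 and DND41 were bright, and CEM and Jurkat lay around the floor. CUTL1 was higher than the mean of the others by 2.93 ± 0.13 (SE, adjusted p = 1.28e-06) but was below DND41 by 0.89 (adjusted p = 0.00299), so CDKN2A was not outside the range. MTAP, a purine salvage enzyme whose gene lies beside CDKN2A, had 7.71 and 8.02 in CUTL1, against 3.95 and 4.44 in CEM, 7.82 and 7.83 in DND41 and 4.06 and 3.96 in Jurkat. It split the lines the same way, and CUTL1 differed from DND41 by 0.04 (adjusted p = 0.878). CDKN2B, which encodes the CDK inhibitor p15 in the same locus, was below the floor on all 8 arrays, with 4.28 and 3.76 in CUTL1, against 4.03 and 4.15 in CEM, 4.15 and 4.28 in DND41 and 4.02 and 4.40 in Jurkat, and was not tested. DNA was not measured.

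The kinases that PD-0332991 inhibits were bright in all 4 lines. CDK4 had 12.19 and 12.06 in CUTL1, against 12.03 and 11.93 in CEM, 12.05 and 12.09 in DND41 and 11.84 and 11.75 in Jurkat, an average difference of 0.18 ± 0.07 that did not pass the test (adjusted p = 0.0802). CDK6 had 13.24 and 13.32 in CUTL1, against 12.80 and 12.95 in CEM, 12.84 and 12.67 in DND41 and 13.21 and 13.33 in Jurkat. CUTL1 overlapped Jurkat, and the average difference of 0.31 ± 0.08 passed (adjusted p = 0.016) but lost the call without CUTL1 replicate 2 (adjusted p = 0.1), with all probe sets averaged (0.288) and with DND41 left out (0.106). The average difference of CCND3, a D-type cyclin of T cells, was 0.22 ± 0.07 (adjusted p = 0.0312), lost its call in 4 of 8 fits with 1 array left out, and turned to -0.08 with Jurkat left out. RB1, the target of these kinases, did not pass the test, at means of 12.05 in CUTL1, 11.75 in CEM, 11.53 in DND41 and 12.44 in Jurkat (adjusted p = 0.238).

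Of the 23 tested genes of the cyclin D, CDK and RB list, 13 (56.5%) were higher and 1 (4.35%) lower in CUTL1 on average, beside 20.4% and 23.5% of all genes (median 0.31), and 4 (17.4%) were above the range, beside 4.85%. CCND1, 1 of the 4, was tested through CUTL1 alone and could only be highest there. CCNE1, cyclin E1, had 8.92 and 8.86 in CUTL1, against 7.93 and 7.85 in CEM, 7.57 and 7.70 in DND41 and 8.22 and 8.25 in Jurkat (gap 0.65). The CDK inhibitor CDKN1B (gap 0.56), the RB relative RBL2 (0.88) and CCND1, above the floor in CUTL1 alone (0.80), were the others, and of the 4 only RBL2 was above the range in the PD-0332991 arrays. Among 25 proliferation genes 14 (56.0%) were higher and 1 (4.0%) lower, beside the same 20.4% and 23.5% (median 0.23), with MKI67, BUB1 and KIF11 above the range in DMSO and 0 of the 3 in PD-0332991. MKI67 lost its call in 6 of 8 fits with 1 array left out, KIF11 in 6 and BUB1 and CDKN1B in 3 each. RBL2 lost it without CUTL1 replicate 1 or DND41 replicate 2 (adjusted p up to 0.0775) and CCND1 without CEM replicate 2 (adjusted p = 0.056). When each gene's probe sets were averaged, BUB1 (gap 0.04) and CCNE1 (gap 0.35, adjusted p = 0.0503) were not called.

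TAL1, HHEX and ERG, T-ALL oncogenic transcription factors, were below the range in CUTL1. Of 25 listed factors 14 were tested, 11 were lower than the mean of the other lines, 1 (FLI1) was higher, and 0 were above the range. The 11 include TAL1, LMO1, TLX3, MEF2C, HHEX and ERG, which were below the floor in CUTL1 and were tested through other lines, so that CUTL1 could not have been highest, and no direction is read from the count. TAL1, the basic helix-loop-helix factor of many T-ALLs, had 4.17 and 4.42 in CUTL1, against 8.85 and 8.93 in CEM, 8.38 and 8.23 in DND41 and 11.23 and 11.22 in Jurkat. It was below the floor on both CUTL1 arrays and well above it on all others, with a gap of -4.01 (adjusted p = 3.14e-07), which was -1.11 with all 4 probe sets averaged. HHEX, a homeobox factor, had 3.55 and 3.40 in CUTL1, against 9.33 and 9.27 in CEM, 9.85 and 9.79 in DND41 and 5.30 and 5.01 in Jurkat (gap -1.68). ERG, an ETS factor, had 3.67 and 3.91 in CUTL1, against 8.45 and 8.55 in CEM, 9.29 and 9.34 in DND41 and 4.41 and 4.68 in Jurkat. CUTL1 and Jurkat were both below the floor for ERG, so its gap of -0.76 compared dim values, and it was not called when probe sets ending in _x_at and _s_at were left out (gap -0.14).

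Factors with a single bright line were brightest in a line other than CUTL1, and CUTL1 was not called outside the range for them. TLX3 had means of 3.23 in CUTL1, 3.50 in CEM, 6.86 in DND41 and 3.35 in Jurkat, and LMO1 had 4.27 in CUTL1, 4.96 in CEM, 9.18 in DND41 and 5.59 in Jurkat. NKX2-5 had 6.81 in CUTL1, 10.72 in CEM, 5.76 in DND41 and 5.88 in Jurkat, and LMO2 5.74 in CUTL1, 8.01 in CEM, 4.79 in DND41 and 5.95 in Jurkat. DND41 was the bright line for TLX3 and LMO1, and CEM for NKX2-5 and LMO2. TLX1 was near the floor in all 4 lines. No listed factor had CUTL1 as its single bright line, and TAL2, LMO3, NKX2-2, SPI1, BHLHE22, OLIG2, SPIB, ZEB2 and MEIS1 were below the floor throughout. The list's median difference moved with the filter on dim genes and was -0.77 as tested, -0.27 with no filter and -1.11 with a floor of 6.

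T-lineage factors lay on both sides of the range. Of 31 tested 16 (51.6%) were higher and 8 (25.8%) lower on average, beside 20.4% and 23.5% of all genes, so that the share of lower genes was near that of all genes (median 0.29). Above the range were 6 (19.4%), beside 4.85%, and below it 3 (9.68%), beside 5.38%. TOX2, an HMG-box factor of the TOX family, had 9.85 and 9.81 in CUTL1, against 4.08 and 3.79 in CEM, 3.69 and 3.77 in DND41 and 7.14 and 7.40 in Jurkat. It was high in CUTL1, lower in Jurkat and below the floor in CEM and DND41 (gap 2.56). The inhibitors of E proteins ID1 and ID3 were both above the range. ID1 had 11.44 and 11.32 in CUTL1, against 7.78 and 7.78 in CEM, 6.42 and 6.15 in DND41 and 9.91 and 9.63 in Jurkat (gap 1.61), and ID3 had 11.74 and 11.65 in CUTL1, against 9.59 and 9.40 in CEM, 9.53 and 9.57 in DND41 and 11.03 and 10.82 in Jurkat (gap 0.77). The E protein gene TCF4 was below it, with 4.60 and 5.19 in CUTL1, against 8.80 and 8.91 in CEM, 10.81 and 10.70 in DND41 and 7.91 and 7.94 in Jurkat (gap -3.03).

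IKZF2 (Helios) was above the range with a gap of 0.90, while ETS2 (-1.48) and BCL11A (-1.20), a factor of early progenitors and B cells, were below it. BCL11B, which commits thymocytes to the T lineage, had 12.31 and 12.17 in CUTL1, against 11.72 and 11.90 in CEM, 11.45 and 11.45 in DND41 and 11.63 and 11.80 in Jurkat (gap 0.43, adjusted p = 0.036), and THEMIS, needed for positive selection, a gap of 0.90. Each lost the call in 7 of 8 fits with 1 array left out, with adjusted p up to 0.222 for BCL11B and 0.146 for THEMIS, and neither was called in the PD-0332991 arrays. The other 7 factors held their side of the range there.

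Genes of the T cell receptor complex and its early signalling were higher in CUTL1 in 19 of 27 (70.4%) and lower in 3 (11.1%), beside 20.4% and 23.5% of all genes (median 0.45). Above the range were 8 (29.6%), beside 4.85%, and 0 were below. TXK, 1 of the 8, was tested through CUTL1 alone and could only be highest there. All 8 were above it again with PD-0332991. The co-stimulatory receptor CD28 had 11.12 and 11.12 in CUTL1, against 9.57 and 9.42 in CEM, 8.29 and 8.26 in DND41 and 10.06 and 10.07 in Jurkat (gap 1.06). ICOS, a relative of CD28, had 11.10 and 11.22 in CUTL1, against 7.84 and 7.75 in CEM, 10.44 and 10.47 in DND41 and 5.79 and 5.55 in Jurkat. It was bright in CUTL1 and DND41 and lowest in Jurkat, with a gap of 0.71. SLAMF1, a co-receptor of the SLAM family, had 8.05 and 8.18 in CUTL1, against 4.43 and 4.50 in CEM, 5.51 and 5.60 in DND41 and 4.81 and 4.22 in Jurkat (gap 2.56), and CEM and Jurkat were below the floor.

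The kinases TXK (gap 1.60) and FYN (0.47), the phosphatases PTPN6 (1.11) and PTPN22 (0.69) and the adaptor TRAT1 (0.61) were the rest. FYN lost the call without CUTL1 replicate 1 or DND41 replicate 2 (adjusted p up to 0.0734) and without probe sets ending in _x_at and _s_at (0.279), and TRAT1 without CUTL1 replicate 1 (adjusted p = 0.057). CD3E, a chain of the complex, had 8.41 and 8.52 in CUTL1, against 8.33 and 8.12 in CEM, 7.78 and 7.53 in DND41 and 8.06 and 8.29 in Jurkat. It was higher than the mean of the others by 0.45 ± 0.10 (adjusted p = 0.00938), not outside the range, and not called without CUTL1 replicate 2 (adjusted p = 0.0733) or with DND41 left out (0.0848). CD7, an early T-cell antigen, was lower, with an average difference of -1.16 ± 0.08 and log2 intensities of 7.68 and 7.92 in CUTL1, against 8.08 and 7.96 in CEM, 9.75 and 9.80 in DND41 and 9.12 and 9.05 in Jurkat, and CUTL1 lay just below CEM.

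Thymocyte stage genes lay on both sides of the range. Of 27 tested 16 (59.3%) were higher and 9 (33.3%) lower on average, beside 20.4% and 23.5% of all genes (median 0.88), and 8 (29.6%) were above and 2 (7.41%) below the range, beside 4.85% and 5.38%. DNTT, the terminal transferase that adds bases during receptor gene assembly in early lymphocytes, had 6.27 and 6.48 in CUTL1, against 11.47 and 11.39 in CEM, 12.36 and 12.29 in DND41 and 10.62 and 10.45 in Jurkat. It was far lower in CUTL1 than in any other line though above the floor, with a gap of -4.16 (adjusted p = 2.37e-07). CD8A, a co-receptor gained by cortical thymocytes, had 8.96 and 8.82 in CUTL1, against 8.11 and 8.04 in CEM, 4.96 and 4.46 in DND41 and 4.54 and 4.45 in Jurkat. CUTL1 was brightest, CEM next, and DND41 and Jurkat were near or below the floor (gap 0.82). CD4, the other co-receptor, had 7.22 and 7.92 in CUTL1, against 6.74 and 6.61 in CEM, 5.63 and 5.88 in DND41 and 5.78 and 5.93 in Jurkat (gap 0.90).

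Genes of the CD1 family, which present lipids and mark cortical thymocytes, did not move together. CD1E had 13.42 and 13.29 in CUTL1, against 11.48 and 11.64 in CEM, 11.66 and 11.65 in DND41 and 12.49 and 12.52 in Jurkat (gap 0.85). CD1B had 13.15 and 13.13 in CUTL1, against 9.73 and 9.82 in CEM, 12.79 and 12.79 in DND41 and 9.99 and 10.0 in Jurkat, with CUTL1 and DND41 both bright and a gap of 0.35. CD1A was below the range, with 8.58 and 8.61 in CUTL1, against 9.69 and 9.55 in CEM, 9.56 and 9.67 in DND41 and 10.34 and 10.39 in Jurkat (gap -1.02). Later surface genes were above the range as well. CD5, which rises with receptor signalling, had 9.27 and 9.06 in CUTL1, against 8.38 and 8.36 in CEM, 6.97 and 6.87 in DND41 and 8.24 and 8.21 in Jurkat (gap 0.80), and CD69, an activation antigen, had 9.54 and 9.48 in CUTL1, against 8.34 and 8.42 in CEM, 7.05 and 7.22 in DND41 and 7.14 and 7.78 in Jurkat (gap 1.13). CD27 (0.91) and CD52 (1.0) completed the 8.

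With 1 array left out, CD4 lost its call in 7 of 8 fits (adjusted p up to 0.165), CD1B in 5 (up to 0.138) and CD8A in 3 (up to 0.0888, without either CEM array or CUTL1 replicate 1). In PD-0332991 arrays 6 of the 8 were again above the range, and CD8A and CD69 were not. DNTT and CD1A were again below it. The list's median was 0.32 with DND41 left out and 1.39 without probe sets ending in _x_at or _s_at.

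**Figure D3:**
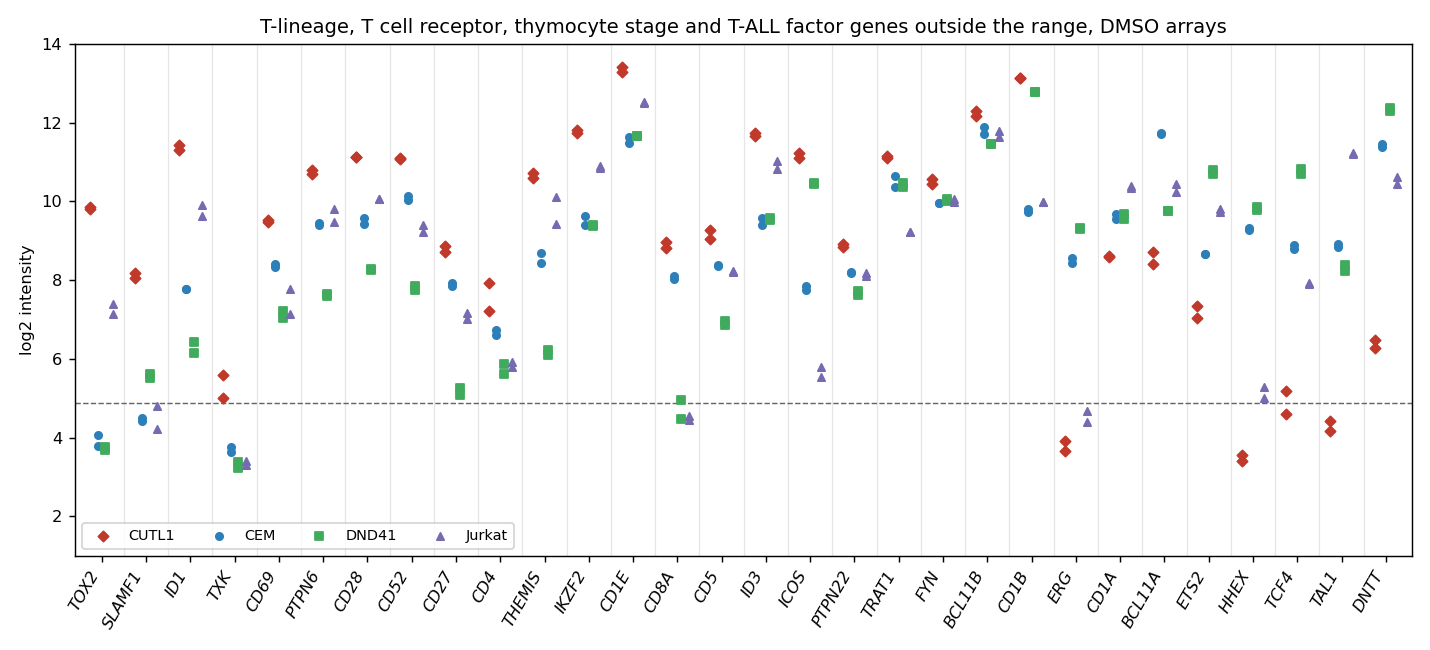
Log2 intensity (vertical axis) on each of the 8 DMSO arrays for the genes of 4 lists (T-lineage factors, T cell receptor genes, thymocyte stage genes and T-ALL factors) that lay outside the range in CUTL1. Genes run from the largest gap above, TOX2 at 2.56, to the largest below, DNTT at -4.16, each point is 1 array, and the dashed line is the floor of 4.88. CUTL1 points lie above all others on the left and below all others on the right.

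Receptors for cytokines and homing signals were outside the range about as often as all genes. Of 37 cytokine receptor and JAK-STAT genes 4 (10.8%) were outside it, beside 10.2%, while 15 (40.5%) were higher and 11 (29.7%) lower on average, beside 20.4% and 23.5% (median -0.02). IL4R, the receptor for interleukin 4, had 9.76 and 9.82 in CUTL1, against 7.29 and 7.27 in CEM, 7.70 and 7.62 in DND41 and 6.93 and 6.89 in Jurkat (gap 2.13), so that CUTL1 lay above the range for both the IL4 and the IL4R gene. IL2RB, a chain of the interleukin 2 and 15 receptors, had a gap of 1.87, IL10RA one of 1.58 and IL9R one of -1.07, all 4 repeated with PD-0332991. CCR9, the chemokine receptor that brings thymocytes and T cells to thymus and gut, had 10.89 and 11.02 in CUTL1, against 9.22 and 9.04 in CEM, 6.86 and 6.82 in DND41 and 5.11 and 5.62 in Jurkat (gap 1.83). CD58, the ligand of CD2, was below the range (gap -1.30).

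Of 26 homing and adhesion genes 5 (19.2%) were higher and 5 (19.2%) lower on average, near the shares of all genes (median 0.06), and 4 (15.4%) were outside the range, beside 10.2%. CD96 (gap 0.30) and CD47 (-0.32) were also outside the range in DMSO but not with PD-0332991. CD96 lost the call in 7 of 8 fits with 1 array left out and CD47 in 8 of 8, with adjusted p up to 0.241 and 0.117.

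Genes of the TNF superfamily and of killing lay on both sides of the range. Of 18 tested 5 (27.8%) were above and 5 (27.8%) below it, beside 4.85% and 5.38% of all genes, and 6 (33.3%) were higher and 11 (61.1%) lower on average, beside 20.4% and 23.5%. Of the 11, 4 (TNFSF4, LTA, TNFSF8 and GZMK) were below the floor in CUTL1 and could not have been highest there. The median was -0.84, but 0.01 with no filter on dim genes. Lymphotoxin beta, LTB, had 11.54 and 11.63 in CUTL1, against 9.95 and 9.81 in CEM, 9.82 and 9.68 in DND41 and 8.18 and 8.05 in Jurkat (gap 1.71). TNFRSF10A, a death receptor for TRAIL, had 7.47 and 7.98 in CUTL1, against 4.42 and 4.56 in CEM, 5.86 and 5.99 in DND41 and 4.86 and 4.69 in Jurkat (gap 1.80), and TNFRSF25, another death receptor, a gap of 0.88. Without probe sets ending in _x_at and _s_at the TNFRSF25 gap was 0.28 and not called (adjusted p = 0.459). CD27 was given above. FAS, the classical death receptor, was lower in CUTL1, with 5.78 and 6.06 in CUTL1, against 8.21 and 8.28 in CEM, 6.56 and 6.79 in DND41 and 8.69 and 8.61 in Jurkat (gap -0.75). The OX40 ligand TNFSF4 (-1.99), TNFRSF8 (CD30, -1.63), its ligand TNFSF8 (-1.61) and the adaptor TRAF3 (-0.65) were below the range too. Perforin, PRF1, passed narrowly (gap 0.30, adjusted p = 0.0488) and lost the call in 8 of 8 fits with 1 array left out.

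B-cell and cytotoxic markers were mixed. CR2, the complement receptor of B cells, had 10.89 and 10.80 in CUTL1, against 6.51 and 6.12 in CEM, 8.02 and 7.80 in DND41 and 6.30 and 6.63 in Jurkat (gap 2.94), while CD79A and CD79B, the signalling chains of the B cell receptor, were lower than the mean of the other lines, with differences of -1.34 ± 0.08 and -1.22 ± 0.15. The summed linear intensity of the 5 B-cell markers was 2041 and 2164 in CUTL1, against 601.021 and 669.538 in CEM, 1704 and 1817 in DND41 and 371.004 and 405.173 in Jurkat. Most of the CUTL1 sum came from CR2, so it does not describe the 5 markers as a set. NKG7, a granule protein, had a gap of 0.72, and GZMA, granzyme A, was lower, with a difference of -2.74 ± 0.15.

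TRIM22, RSAD2 and further interferon-stimulated genes were below the range in CUTL1. Of 37 tested 20 (54.1%) were lower, beside 23.5% of all genes, and 8 (21.6%) higher, near the 20.4% of all genes (median -0.30). Below the range were 8 (21.6%), beside 5.38%, and above it 1 (2.7%), beside 4.85%, each again with PD-0332991. IFIT1, OAS1 and TRIM22 were below the floor in CUTL1 and could not have been highest there. TRIM22, an antiviral ubiquitin ligase, had 4.21 and 3.74 in CUTL1, against 9.07 and 9.03 in CEM, 9.69 and 9.73 in DND41 and 7.62 and 7.88 in Jurkat. It was below the floor on both CUTL1 arrays and above it on all others (gap -3.78, adjusted p = 3.41e-06). RSAD2 (viperin) had 5.58 and 6.01 in CUTL1, against 7.75 and 7.49 in CEM, 7.46 and 7.57 in DND41 and 6.75 and 7.18 in Jurkat (gap -1.17), and IFIT1 a gap of -1.05. The RNA sensor RIGI had 6.19 and 6.31 in CUTL1, against 7.51 and 7.50 in CEM, 7.28 and 7.12 in DND41 and 8.25 and 8.39 in Jurkat (gap -0.95), and was not called without probe sets ending in _x_at and _s_at (gap -0.59, adjusted p = 0.0532).

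IFITM2 (-1.12) and IFITM3 (-0.37), near-identical genes whose probes may not tell them apart, USP18 (-0.56) and HERC5 (-0.35) were the others below, and ISG20 (0.55) was above. HERC5, IFITM3 and ISG20 each lost the call in 7 of 8 fits with 1 array left out, and USP18 in 3 (without either CEM array or CUTL1 replicate 1). ERAP2, which trims peptides for MHC class I, was above the range (gap 1.28). It was 1 of 18 class I presentation genes (5.56%), near the 4.85% of all genes. Of 10 MHC class II genes 0 were outside it, beside 10.2% of all genes, and nothing is read from so small a list. On average 2 (20.0%) of these were higher and 1 (10.0%) lower, beside 20.4% and 23.5%. HLA-DRA was below the floor in all 4 lines.

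Survival and growth signalling genes were also among those above the range. IRS2, which carries insulin and IGF signals to PI3-kinase, had 10.01 and 10.12 in CUTL1, against 5.40 and 4.91 in CEM, 6.18 and 6.26 in DND41 and 6.80 and 7.16 in Jurkat (gap 3.09). It was 1 of 6 genes (26.1%) above the range among 23 of the PI3K and AKT list, beside 4.85% of all genes, 5 of them again with PD-0332991, and 0 were below. The others were PHLPP1 (0.96), INPP5D (0.80), FOXO4 (0.61), RPTOR (0.55) and PIK3CG (0.45), and the list's median was 0.02. The BH3-only killers PMAIP1 (NOXA) and BCL2L11 (BIM) were above the range too. PMAIP1 had 12.60 and 12.76 in CUTL1, against 10.83 and 10.84 in CEM, 11.87 and 12.02 in DND41 and 11.49 and 11.47 in Jurkat (gap 0.73), and BCL2L11 had 9.91 and 9.91 in CUTL1, against 7.53 and 7.69 in CEM, 8.94 and 8.87 in DND41 and 8.95 and 9.17 in Jurkat (gap 0.85).

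RPTOR and PIK3CG lost their calls in 4 of 8 fits with 1 array left out, and INPP5D in 2 (without CUTL1 replicate 1 or DND41 replicate 2, adjusted p up to 0.0784). Of 19 BCL2 family genes 6 (31.6%) were higher and 2 (10.5%) lower on average, beside 20.4% and 23.5% of all genes (median 0.05). PMAIP1 and BCL2L11 were the 2 (10.5%) above the range, beside 4.85%, and 0 were below it. The share outside on either side was thus near the 10.2% of all genes. BIK, of the same family, was lower, with a difference of -0.87 ± 0.07 (adjusted p = 3.21e-05). Its means were 8.41 in CUTL1, 10.08 in CEM, 7.44 in DND41 and 10.32 in Jurkat, inside the range.

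Among 28 chromatin and transcription genes that are mutated in T-ALL, 16 (57.1%) were higher and 5 (17.9%) lower on average, beside 20.4% and 23.5% of all genes (median 0.26), and 2 (7.14%) were above and 4 (14.3%) below the range, beside 4.85% and 5.38%. WT1, a zinc finger tumour suppressor, had 4.97 and 5.48 in CUTL1, against 9.66 and 9.58 in CEM, 9.47 and 9.53 in DND41 and 7.22 and 7.64 in Jurkat. It was the lowest in CUTL1, just above the floor (gap -2.21). ETV6 (-0.69) and IDH1 (-0.68) were below the range, and ASXL1 (0.51) and TET2 (0.52) above. TET1 (-0.41) was below it on its brightest probe set, while another TET1 probe set was higher in CUTL1. TET1 lost the call in 6 of 8 fits with 1 array left out (adjusted p up to 0.147) and was not called with PD-0332991. When each gene's probe sets were averaged, TET1 was inside the range and TET2 was not called (gap 0.20, adjusted p = 0.268). GGH, which removes glutamates from folates and methotrexate, had 8.09 and 8.39 in CUTL1, against 10.93 and 10.93 in CEM, 10.25 and 10.35 in DND41 and 10.60 and 10.70 in Jurkat (gap -2.06), and FKBP5, a glucocorticoid-induced gene, was above the range (0.74). SLC29A1, a nucleoside transporter (0.49), lost its call in 7 of 8 fits with 1 array left out.

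The remaining lists are given in brief. Of 24 glycolysis and hypoxia genes 7 (29.2%) were higher and 5 (20.8%) lower, beside 20.4% and 23.5% of all genes (median 0.07), with the glycolytic enzymes PKM (0.49) and ENO2 (0.54) above the range and the oxygen sensor EGLN3 (-0.39) below it. EGLN3, below the floor in CUTL1, lost its call in 5 of 8 fits with 1 array left out, and PKM was the one called again with PD-0332991. Of 18 MHC class I presentation genes 4 (22.2%) were higher and 4 (22.2%) lower, near the shares of all genes (median 0.12). Of 22 drug handling genes 8 (36.4%) were higher and 8 (36.4%) lower, beside 20.4% and 23.5% (median -0.15). Outside the range were 3 (13.6%) of the drug handling genes and 3 (12.5%) of the glycolysis and hypoxia genes, beside 10.2% of all genes. Of 30 cancer-testis genes 6 were tested, 3 of them (MAGEA4, MAGEC2 and PRAME) through Jurkat alone, where CUTL1 could not be highest, so no direction is read from the 5 that were lower. Among 6 HOX genes 2 (33.3%) were lower and 0 higher, beside 23.5% and 20.4% of all genes. In either list 0 were outside the range, beside 10.2% of all genes, and nothing is read from lists so small. HOXB3, brightest in Jurkat, had an average difference of -0.59 ± 0.08 that became 0.48 with Jurkat left out.

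Genes of chromosome 18 were higher in CUTL1 as a group, a pattern noticed after the values were seen, as were the genes named for it beyond the lists. Of 187 genes tested on chromosome 18 (positions from RefSeq, GRCh38.p14), 61 (32.6%) were above the range, against 4.85% of all genes tested. The next chromosomes were 12, with 6.79%, and 20, with 6.59%. The median difference was 0.34, or 1.26-fold, and it was 0.33 against CEM, 0.41 against DND41 and 0.23 against Jurkat. Of the 187, 105 (56.15%) were higher on average, beside 20.4% of all genes, and 25 were lower, beside 23.5%. The difference was positive for 133 (71.1%), and the median over all genes was -0.01. The medians on the 2 CUTL1 arrays were 0.32 and 0.37.

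The excess ran along the whole chromosome in gene order. In 4 stretches of near-equal gene number, CUTL1 had 20 of 47, 11 of 47, 17 of 47 and 13 of 46 genes above the range, with medians of 0.48, 0.32, 0.34 and 0.26. Among genes at 8 or more on the log2 scale in all 3 other lines, 33 of 78 (42.3%) on chromosome 18 were above the range, against 4.15% of 5547 such genes of all chromosomes. With PD-0332991 47 genes (25.1%) were above it, 41 of them the same genes, and the median was 0.32. DNA copy number was not measured, and its part was not tested.

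Genes of many kinds made up the 61. ACAA2, a mitochondrial thiolase, had 11.61 and 11.62 in CUTL1, against 9.71 and 9.63 in CEM, 5.98 and 6.0 in DND41 and 9.62 and 9.52 in Jurkat (gap 1.94). SMAD4, the common mediator of TGF-beta signals, had 9.74 and 9.71 in CUTL1, against 8.87 and 8.87 in CEM, 9.20 and 9.17 in DND41 and 8.37 and 8.62 in Jurkat (gap 0.54), and the inhibitor SMAD7 had 6.95 and 6.96 in CUTL1, against 4.71 and 4.83 in CEM, 4.46 and 4.58 in DND41 and 5.14 and 5.15 in Jurkat (gap 1.81). The kinase YES1 (1.20), the tubulin TUBB6 (2.55), the autophagy gene EPG5 (1.42), SMCHD1 (0.89), MALT1 (0.46) and NDC80 (0.77) were among them, as were APCDD1, SALL3, PHLPP1 and PMAIP1 above. Not every gene followed, since 9 (4.81%) were below the range, near the 5.38% of all genes. They included TCF4, the cadherins CDH2 (-4.13) and DSG2 (-3.89), ZNF521 (-3.29) and SOCS6 (-2.31). CDH2 had 4.31 and 4.55 in CUTL1, against 10.18 and 10.18 in CEM, 9.91 and 9.87 in DND41 and 8.48 and 8.65 in Jurkat, so that it was below the floor in CUTL1 and bright in the 3 other lines.

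**Figure D4:**
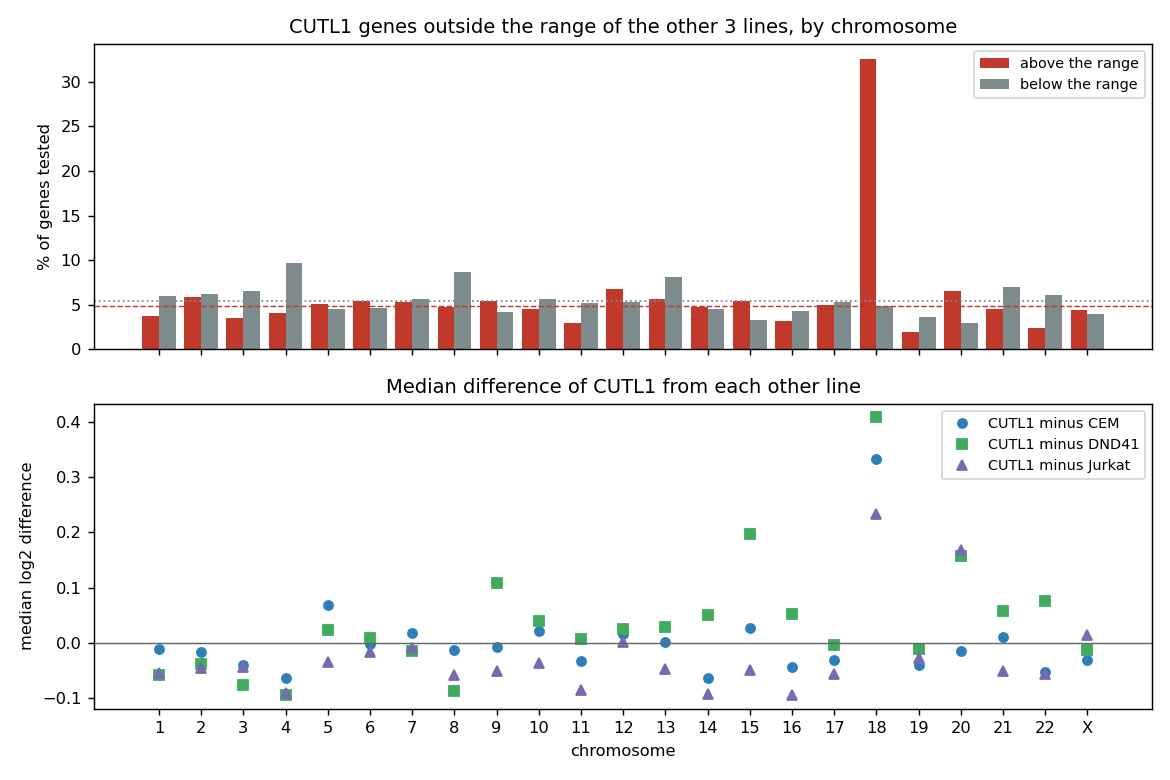
Upper panel, percent of the genes tested on each chromosome that lay above (red) or below (grey) the range in CUTL1, with dashed and dotted lines at the percentages over all genes, 4.85% and 5.38%. Lower panel, median log2 difference of CUTL1 from each other line by chromosome, where chromosome 18 lies at 0.33 against CEM, 0.41 against DND41 and 0.23 against Jurkat.

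The PD-0332991 arrays gave a second measurement of each line, under treatment. By the same rule 637 genes (4.7%) were above and 763 (5.63%) below the range there. Of the genes called in DMSO, 450 above the range (68.5% of the DMSO calls and 70.6% of those with PD-0332991) and 507 below it (69.6% and 66.4%) were called again. Of those with a gap of 1 or more, 201 of 218 and 195 of 205 were called again. The CUTL1 mean was on the same side of all 3 lines for 617 of 657 and 704 of 728 genes and on the other side for 1 and 0. The gaps had a Pearson r of 0.959 across the 1385 genes, a description of the same 4 lines and not of independent cells. These genes were chosen for clear DMSO gaps above or below the range. A high r therefore follows wherever the sides persist, and it does not measure agreement in the size of the gaps.

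**Figure D5:**
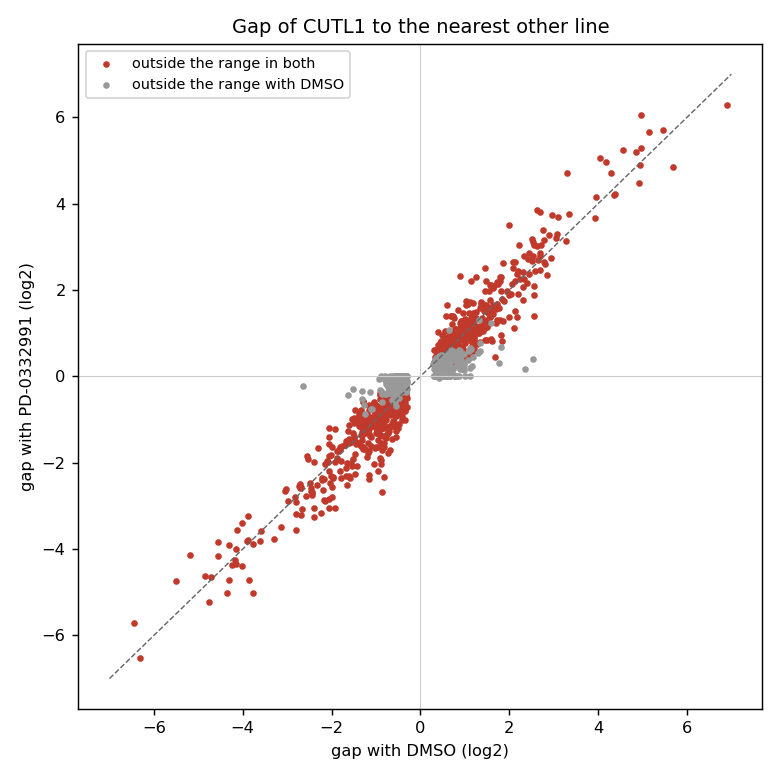
Gap of CUTL1 to the nearest other line (log2) with DMSO (horizontal) and with PD-0332991 (vertical) for the 1385 genes outside the range with DMSO, where 0 on the vertical axis means inside the range. Each point is 1 gene, red where it was outside the range in both, and the dashed line marks equal gaps. Points lie along the line, with a median PD-0332991 gap of 0.63 for genes above and -0.59 for genes below.

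The difference between CUTL1 and the mean of the other lines changed with PD-0332991 for 620 genes (4.58%) in a test of that change. Among genes outside the range the number was 68 of 657 (10.35%) above it and 90 of 728 (12.4%) below it. The DMSO arrays that chose these genes also enter the change, so these shares are not read as a trait of them. APCDD1 moved further away, with 9.59 and 9.64 in CUTL1 under PD-0332991, against 3.22 and 3.39 in CEM, 3.51 and 3.61 in DND41 and 3.55 and 3.50 in Jurkat. Its gap was 6.05 with PD-0332991 and 4.98 with DMSO. BCL2L11 also moved further, with gaps of 1.54 with PD-0332991 and 0.85 with DMSO. The TRIM22 gap, below the range, was also wider, at -5.01 and -3.78. CUTL1 was below the floor under both treatments for TRIM22, and the 3 other lines were brighter with PD-0332991. It had 3.72 and 4.49 in CUTL1 under PD-0332991, against 10.45 and 10.30 in CEM, 10.43 and 10.58 in DND41 and 9.06 and 9.17 in Jurkat.

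Other genes came closer. TNFRSF8 had a gap of -0.43 with PD-0332991, no longer called, and of -1.63 with DMSO. CCNE1 was inside the range with PD-0332991, at 6.27 and 6.02 in CUTL1, against 6.17 and 6.41 in CEM, 5.70 and 6.12 in DND41 and 6.63 and 6.77 in Jurkat. NOTCH1 had a gap of 1.12 with PD-0332991 and 0.98 with DMSO, and the change of its average difference did not pass the test (adjusted p = 0.46).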

How the data were processed

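RNA of 4 T-ALL lines was measured on 16 arrays, in 8 groups of 2. Total RNA was extracted with a Qiagen kit and 5 ng were amplified with the Nugen Ovation system, per the labels' protocols. Per the submitters' processing notes the authors used RMA, whose version is not given in the sources used here, nor is a genome build. What the authors deposited is intensity on a linear scale, from 4.42 to 26097, with medians of 28.5 to 29.9 on the DMSO arrays, and their log2 was taken here without an offset or further scaling. The design had named log2 values. No detection calls were used, and precision is limited by having 2 arrays a group.

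Of 54675 probe sets, 41097 had 1 gene symbol in the platform annotation, 1801 had several and 11777 were unnamed here. The gene identifiers of 41043 were found in the RefSeq table (GRCh38.p14), and 0 symbols changed. One probe set stood for each gene, the brightest by its mean on the 16 arrays. A group of 59 probe sets was left out, and genes without a probe set of 1 symbol were not analysed here. Models were fitted with limma 3.58.1 in R 4.3.3 (lmFit and eBayes) on the 8 DMSO arrays (4 residual degrees of freedom), separately on the 8 PD-0332991 arrays, and on all 16 for the change between treatments. Tests were two-sided and adjusted over 13542 genes, and the range test took the largest of 3 p-values. The fits were tested on simulated data. Figures used Python 3.11.15, pandas 2.3.3 and matplotlib 3.10.9.

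Named genes were the 15 largest gaps on each side, uncharacterised loci passed over, list members outside the range (topped up to 3 a list by the average difference) and fixed genes such as NOTCH1, CDKN2A and CDK4. The members and lists were chosen with earlier results of these data known. Some fixed genes and a gene list are not reported here. Alternatives covered the floor on dim genes, the choice of probe set, normalization, an offset, the variance prior, all 16 arrays in 1 fit, each line left out of the range, each array left out, and the replicate number as a block.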

Additional observations from a re-analysis of the deposited data

Results flagged for a closer look

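The difference between CUTL1 and the mean of the other lines changed between PD-0332991 and DMSO for 29 of 160 named genes tested for it (limma on 16 arrays, adjusted over all genes). Of all 13542 genes tested it changed for 620 (4.58%). Apart from the fixed genes, the named genes were chosen by DMSO values that enter this change, so their number is not read against that share. On the log2 scale 17 had a positive and 12 a negative change. Genes higher in CUTL1 whose difference was larger with PD-0332991 were APCDD1 (change 1.09), GPR183 (0.988), BCL2L11 (0.965), TXK (0.838), SHISA9 (0.703), SLC29A1 (0.702), PMAIP1 (0.641), HES4 (0.566), IL4R (0.485), PTPN22 (0.39) and SFRP2 (0.312). HES4 was the one gene of the NOTCH list among them. Genes higher in CUTL1 whose difference was smaller were CCDC50 (-0.823), the proliferation genes MKI67 (-0.661) and KIF11 (-0.492), ENO2 (-0.414) and CD96 (-0.373). CCNE1 (-1.12) was higher in CUTL1 with DMSO and had an average difference of -0.16 with PD-0332991.

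Genes lower in CUTL1 moved both ways. The interferon-stimulated genes RSAD2 (-1.47), TRIM22 (-1.03) and HERC5 (-0.679), with GGH (-0.969), RAB33A (-0.854) and NAP1L3 (-0.623), were further below the other lines with PD-0332991. TNFRSF8 (1.24), CLEC11A (0.982), BIK (0.789), PNMA2 (0.784), TUSC3 (0.514) and CD7 (0.426) were closer to them. Groups of 2 arrays are too small for a test of single outlying arrays, and none was made.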

How the results depend on the processing

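Of 3445 repeated values of 160 named results under the alternatives, 3192 kept direction and side of the threshold, 240 lost the call, 11 gained it and 2 reversed. Those 2 came with Jurkat left out, CCND3 at -0.0811 (adjusted p = 0.398) and HOXB3 at 0.48 (adjusted p = 0.00278). The count above the range, 657, was 1235 with Jurkat left out. The count below it, 728, was 485 without probe sets ending in _x_at and _s_at, 1279 with CEM left out and 1177 with Jurkat left out. Fewer lines to exceed, and fewer genes tested, make these differ by construction. Leaving out 1 array gave 460 to 632 genes above and 427 to 636 below. The labels number the arrays of each line 1 and 2. The deviations of same-numbered arrays correlated at -0.06 to 0.21 over 6 pairs of lines, with 1 of 6 over 0.1. The main fits used no pairing, and these correlations cannot show whether same-numbered arrays share more than a number. With the replicate block 2775 genes were higher and 3155 lower on average, 636 lay above and 680 below the range, and with PD-0332991 570 above and 704 below. Of 651 repeats for the 30 largest gaps, 650 kept the call, and MYCN lost it without _x_at and _s_at probe sets. Chromosome 18 genes above the range numbered 41 to 87, and their median was 0.26 to 0.47. The median over all genes stayed between -0.03 and 0.00. Gaps against dim values are limited by signal over background. Of the named genes outside the range, 8 lost the call with averaged probe sets, 9 of the 93 still measured without _x_at and _s_at probe sets, and 2 with 16 added to the intensities.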

Other observations

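By the same rule, CEM lay above its range for 3.21% of the chromosome 18 genes tested, DND41 for 3.74% and Jurkat for 6.42%. Below the range, the chromosomes with the highest percentages in CUTL1 were 4, with 9.72% of 463 genes, 8, with 8.64% of 463, and 13, with 8.15% of 233, against 5.38% of all genes tested. The median difference of CUTL1 on these chromosomes was -0.08, -0.07 and 0.01. These chromosomes were chosen after their values were seen, and no test was made.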
